A study of Homo sapiens with 8 samples.

Results

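SULF1, SULF2 and HPSE encode the enzymes that edit heparan sulfate after it has left the cell, and they were taken from the gene table by symbol, as 3 of its 15811 genes. The table holds RNA-seq of H9 cells, a long-established line of human embryonic stem cells, from 2 groups. WT cells carried no edit, and EXT1-/- cells had been edited with CRISPR/Cas9 in EXT1, which encodes a subunit of the polymerase that extends heparan sulfate chains; the submitters describe the line as having no heparan sulfate. Both groups had been plated on vitronectin in E8 medium with the ROCK inhibitor Y-27632, and then kept for 28 h in RPMI-1640 with 6 µM CHIR-99021, an inhibitor of GSK3 that activates Wnt signalling, so every library came from induced cells, and uninduced cells were not analysed here. Each group had 4 libraries. The labels describe 1 EXT1-/- line and do not say that the replicates were separate cultures, so each p-value reflects variation among libraries that may be only technical. In bulk RNA, fewer cells that express a gene and less RNA per cell cannot be told apart.

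Heparan sulfate is a long sugar chain on core proteins of the cell surface and matrix, and the sulfate groups along it set which growth factors and morphogens it binds. SULF1 and SULF2 are secreted endosulfatases that remove 6-O-sulfate from glucosamine within finished chains, which changes how cells receive Wnt, FGF and other signals. HPSE encodes heparanase, an endoglucuronidase that cuts the chains into fragments.

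SULF1 and SULF2 belong to the sulfatase family, whose members share a short stretch of 5 codons for cysteine, any residue, proline, serine and arginine. The enzyme made by SUMF1 converts that cysteine to the formylglycine on which sulfatase activity depends. The stretch occurred exactly once in the coding transcript of each of 17 sulfatase genes searched in GENCODE 29, at codon 87 of SULF1 and codon 88 of SULF2.

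Upstream sequence is shown for SULF2 and HPSE because SP1, EGR1 and ETS factors have been reported to act on genes of this group. For each gene the annotated start whose 250 bases of upstream sequence held the most GC boxes was taken from RefSeq (GRCh38.p14), the more upstream one where starts tied, and bases that GENCODE 29 annotates as exon were left out. The SULF2 stretch, chr20:47785490-47785731 on the minus strand, belongs to the third of 4 annotated starts, and the HPSE stretch, chr4:83334883-83335047 on the minus strand, belongs to the second of 3. Both lie within an intron of transcripts that start further upstream. Capitals mark the GC box, GGGCGG.
SULF2: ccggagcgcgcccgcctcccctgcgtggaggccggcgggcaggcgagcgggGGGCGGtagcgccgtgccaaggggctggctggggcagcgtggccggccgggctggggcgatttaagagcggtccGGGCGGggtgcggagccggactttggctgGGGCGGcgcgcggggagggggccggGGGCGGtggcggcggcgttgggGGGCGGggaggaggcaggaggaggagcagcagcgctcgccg
HPSE: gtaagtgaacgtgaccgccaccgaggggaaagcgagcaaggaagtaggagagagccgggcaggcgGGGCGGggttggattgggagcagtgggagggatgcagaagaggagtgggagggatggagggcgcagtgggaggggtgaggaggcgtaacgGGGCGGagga

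The SULF2 stretch held 5 GC boxes and was 81.4% G or C, and the HPSE stretch held 2 and was 66.1% G or C. Since these stretches were picked for their GC boxes, the counts are a description: SULF2 starts 1 and 2 had 0 and start 4 had 1, while HPSE start 1 had 0 and start 3 also had 2. A GC box on either strand was present in 42.6% of all 35116 upstream windows of 250 bases. The ETS core CGGAAG was present in 16.5% of those windows and the EGR1 site GCGTGGGCG in 0.720%, on either strand, and neither motif occurs in the windows of any annotated SULF2 or HPSE start. These matches describe the letters of the windows and were not measured as bound sites.

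All 3 genes were lower in EXT1-/- cells, and in none did the groups overlap. HPSE entered the table through its WT libraries alone, so its direction was limited by the table and its count here is no support. SULF1 fell most, to 33.2% of its WT mean, HPSE to 60.6% and SULF2 to 66.8%. Each passed limma at an adjusted p under the threshold of 0.05, beside 16.8% of all 15811 genes called lower and 15.2% called higher, 32.0% in all. Groups without overlap, with EXT1-/- lower, were found for 17.2% of all genes. The median log2 fold change of all genes was 0.01, and 1.90% of genes had a more negative value than SULF1, 7.63% than HPSE and 10.3% than SULF2.

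**Figure D1:**
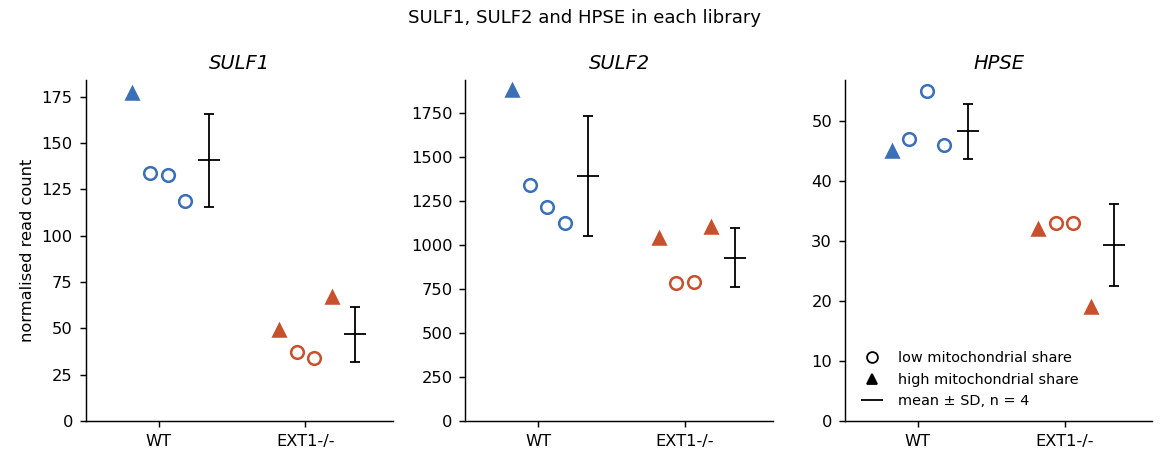
Normalised read count (y axis, from 0) of SULF1, SULF2 and HPSE in each of the 4 WT and 4 EXT1-/- libraries, with filled triangles for libraries with a high mitochondrial share, open circles for the others, and bars for the mean ± SD. Every EXT1-/- library lay below every WT library in each panel. In proportion to its level, the smallest gap was that of SULF2, between 1100 and 1125.

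The libraries were alike in scale and differed in their share of mitochondrial RNA. Their totals of normalised counts ran from 37737058 to 40017763. Mitochondrial genes took 10.67% of WT replicate 1 and 9.18% and 9.38% of EXT1-/- replicates 1 and 4, against 5.30% to 5.43% of the other 5 libraries. These 3 libraries are called the high set and the other 5 the low set. EXT1 RNA, the check of the labels, was 1776, 1499, 1464 and 1508 in the 4 WT replicates in order and 890, 894, 915 and 980 in the 4 EXT1-/- replicates, and it was lower in every EXT1-/- library (log2 fold change -0.76 ± 0.07 SE, adjusted p = 9.20e-05, limma). The labels do not give the edited position, so the RNA level does not show what protein remained.

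SULF1 (ENSG00000137573, chromosome 8, 69466624 to 69660915, plus strand, GRCh38) is a secreted endosulfatase. Its normalised counts were 177, 134, 133 and 119 in the 4 WT replicates in order and 49, 37, 34 and 67 in the 4 EXT1-/- replicates. The highest EXT1-/- value, in replicate 4, stood well under the lowest WT value. The mean fell from 140.8 ± 25.1 to 46.8 ± 14.97 (SD, n = 4 each), a log2 fold change of -1.60 ± 0.23 (SE; 95% interval -2.12 to -1.09; adjusted p = 0.000806, limma), or 3.04-fold (2.13 to 4.34). The exact two-sided permutation test over the 70 divisions of the 8 libraries gave p = 0.0286, the smallest it can give. The authors' deposited table, which calls 13.6% of all genes lower at an FDR under 0.05 and 26.2% in either direction, gives SULF1 a log2 fold change of -1.58 and an FDR of 1.13e-07. SULF1 stood higher in the high set than in the low set within each genotype, 1.38-fold in WT and 1.63-fold in EXT1-/-. On the log2 scale its difference was -1.83 among low-set libraries and -1.61 among high-set libraries. The high set holds 1 WT library and 2 EXT1-/- libraries, so its values were not tested.

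SULF2 (ENSG00000196562, chromosome 20, 47656348 to 47786616, minus strand, GRCh38), the second endosulfatase, had the highest level of the 3 genes. Its normalised counts were 1880, 1336, 1213 and 1125 in the 4 WT replicates in order and 1038, 784, 786 and 1100 in the 4 EXT1-/- replicates. WT replicate 1 stood above the other WT libraries, and EXT1-/- replicate 4 came close to WT replicate 4 without reaching it. The mean fell from 1388.5 ± 339 to 927 ± 166 (SD, n = 4 each), a log2 fold change of -0.57 ± 0.18 (SE; 95% interval -0.98 to -0.17; adjusted p = 0.0380, limma). The exact two-sided permutation p was 0.0286. The authors' deposited table gives SULF2 -0.58 and an FDR of 0.00319.

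The 3 libraries of the high set were the ones with high SULF2 in their own genotype, by 1.54-fold in WT and 1.36-fold in EXT1-/-. SULF2 was lower in EXT1-/- within each set, with a log2 difference of -0.64 in the low set and -0.81 in the high set. The high-set value sets 1 WT library against 2 EXT1-/- libraries and was not tested. When limma was given the library set as a covariate, the difference was -0.70 ± 0.06 (SE, adjusted p = 1.89e-05), and over the 11 alternatives that kept every library or took the low set the adjusted p ran from 1.89e-05 to 0.0516, the last from limma without a trend, which ended the call. In limma, the SULF2 call was lost without WT replicate 2 (adjusted p = 0.0809), WT replicate 3 (0.0553), EXT1-/- replicate 1 (0.0506), EXT1-/- replicate 2 (0.0904) or EXT1-/- replicate 3 (0.0868), with the gene lower in EXT1-/- each time.

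HPSE (ENSG00000173083, chromosome 4, 83292461 to 83335153, minus strand, GRCh38), which encodes heparanase, was low in every library. Its normalised counts were 45, 47, 55 and 46 in the 4 WT replicates in order and 32, 33, 33 and 19 in the 4 EXT1-/- replicates. The WT values lay close together, and EXT1-/- replicate 4 stood apart below the other EXT1-/- libraries. The mean fell from 48.25 ± 4.57 to 29.25 ± 6.85 (SD, n = 4 each), a log2 fold change of -0.73 ± 0.22 (SE; 95% interval -1.22 to -0.24; adjusted p = 0.0303, limma). The exact two-sided permutation p was 0.0286. The authors' deposited table gives HPSE the same log2 fold change, -0.73, with an FDR of 0.133, and does not call it.

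Every gene of the table reached 38 normalised counts in at least its second-highest library, and HPSE did so through its WT libraries alone. A gene that enters a table this way tends to be lower in the other group, so its direction is limited by how the table was made. SULF2 met the same level in every EXT1-/- library. SULF1 met it in EXT1-/- replicates 1 and 4, both of the high set, and lay under it in replicates 2 and 3. The HPSE call was lost in limma without WT replicate 2 (adjusted p = 0.0710), WT replicate 3 (0.0850) or WT replicate 4 (0.0616), beside 0.0394 to 0.0850 over all 8 omissions of 1 library. HPSE did not share the high values of the high set: the high set stood at 0.912 of the low set in WT and 0.773 in EXT1-/-. In WT the high set is 1 library.

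**Figure D2:**
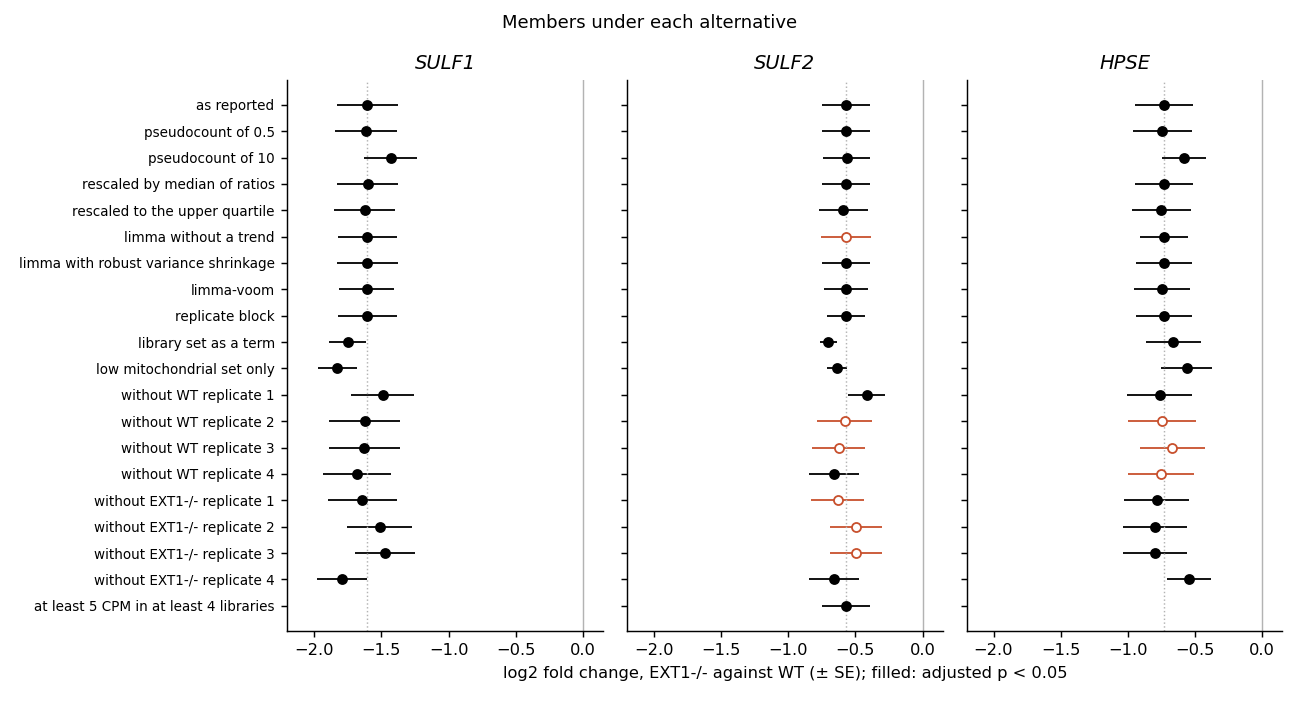
Log2 fold change, EXT1-/- against WT, with its SE (x axis) for SULF1, SULF2 and HPSE under each way of processing and with each library left out (y axis), filled where the limma adjusted p passed 0.05. All points lie below 0, and those of SULF1 are all filled. Open points appear for SULF2 and HPSE when single libraries were left out, and for SULF2 with limma without a trend.

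Levels were compared between genes per kilobase of annotated exon. This length merges the exons of all annotated transcripts, and which transcripts the cells expressed was not measured. The order of genes, and the shares and ratios between them, therefore rest on that length. In WT, SULF2 stood at 208.6 ± 50.9 normalised counts per kb, SULF1 at 14.97 ± 2.67 and HPSE at 10.2 ± 0.969 (SD, n = 4 each). SULF2 was far above the others and SULF1 was above HPSE in all 4 WT libraries, with no overlap between neighbours in that order. In EXT1-/-, SULF2 stood at 139.3 ± 24.9, HPSE at 6.20 ± 1.45 and SULF1 at 4.97 ± 1.59 per kb. SULF1 and HPSE could no longer be ordered per kb: HPSE was the higher in EXT1-/- replicates 1 to 3 and SULF1 in replicate 4. Before division by length, SULF1 had the higher normalised count in every EXT1-/- library.

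Among all genes of the table, the level per kb of SULF2 went from the percentile 57.7 in WT to 47.3 in EXT1-/-. SULF1 went from 8.19 to 1.83 and HPSE from 4.87 to 2.66. SULF2 was thus near the middle of the measured genes, and SULF1 and HPSE near the bottom, in both genotypes.

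The makeup of the endosulfatase pool differed between the groups. SULF1 made up 6.25%, 6.63%, 7.20% and 6.97% of the summed SULF1 and SULF2 level per kb in the 4 WT replicates in order and 3.23%, 3.23%, 2.97% and 4.13% in the 4 EXT1-/- replicates. The groups did not overlap, and the ratio of SULF2 to SULF1 went from 13.8 ± 0.925 to 28.9 ± 4.03 (SD, n = 4 each). The summed level per kb went from 223.5 ± 53.6 to 144.2 ± 26.4, again without overlap, and SULF2 made up most of it in every library.

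The 6-O-sulfotransferases place the groups that the endosulfatases remove. HS6ST1, the more abundant of those measured, had normalised counts of 1567, 1364, 1362 and 1229 in the 4 WT replicates in order and 1663, 1366, 1342 and 1832 in the 4 EXT1-/- replicates. The groups overlapped and HS6ST1 did not pass limma (log2 fold change 0.16 ± 0.12 SE, adjusted p = 0.332). HS6ST2 had 490, 708, 675 and 699 in WT and 159, 256, 244 and 200 in EXT1-/-. Every EXT1-/- value lay well below WT, and HS6ST2 fell by 1.59 on the log2 scale (SE 0.17, adjusted p = 0.000187, limma). HS6ST3 was not analysed here.

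The summed level of HS6ST1 and HS6ST2 per kb was 423.3 ± 14.5 in WT and 374.1 ± 44.3 in EXT1-/- (SD, n = 4 each), and these groups overlapped. Divided by the summed SULF1 and SULF2 level, it gave 1.44, 2.01, 2.17 and 2.21 in the 4 WT replicates in order and 2.40, 2.82, 2.76 and 2.50 in the 4 EXT1-/- replicates. The groups of this RNA ratio did not overlap, at means of 1.96 ± 0.358 and 2.62 ± 0.199, and WT replicate 1, of the high set, was the lowest. The ratio describes transcripts, with no enzyme activity or sulfation measured.

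**Figure D3:**
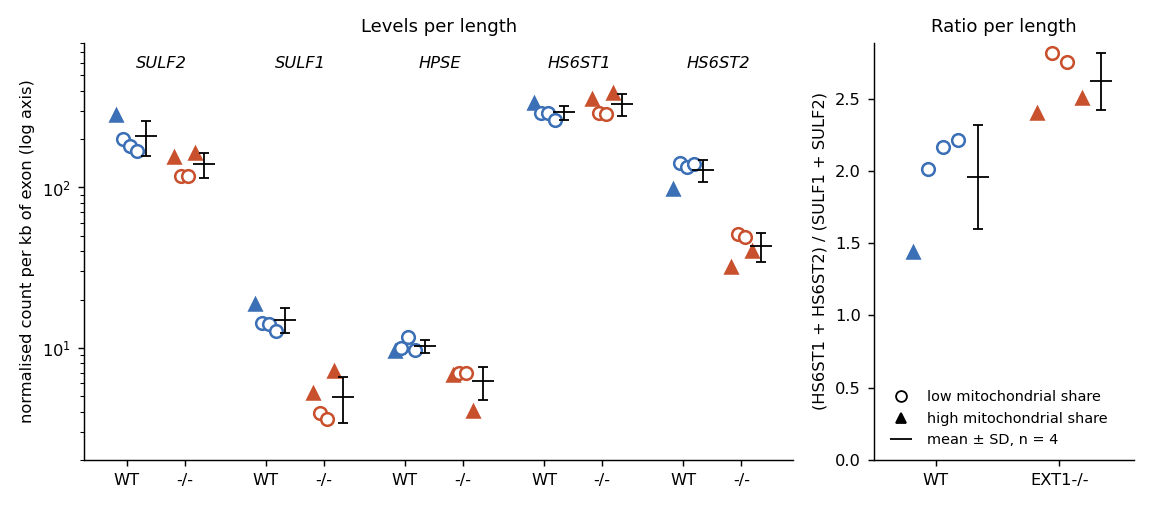
Left, level of SULF2, SULF1, HPSE, HS6ST1 and HS6ST2 per kb of exon in each library (log axis), and right, the ratio of the summed 6-O-sulfotransferase level to the summed endosulfatase level (axis from 0), with triangles for the high set, circles for the low set and bars for the mean ± SD. SULF1 and HPSE overlap in EXT1-/-, and the ratio runs from 1.44 to 2.21 in WT and from 2.40 to 2.82 in EXT1-/-.

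SUMF1 and SUMF2 were both lower in EXT1-/-, beside 16.8% of all genes lower and 15.2% higher. Sulfatase activation itself was not measured. SUMF2, a paralogue of SUMF1, had normalised counts of 2370, 2425, 2513 and 2467 in the 4 WT replicates in order and 1846, 1662, 1745 and 1670 in the 4 EXT1-/- replicates. The groups were well apart (log2 fold change -0.50 ± 0.05 SE, adjusted p = 0.000165, limma). SUMF1, the activating enzyme, had 619, 742, 787 and 767 in WT and 576, 639, 612 and 557 in EXT1-/-. Its groups overlapped at WT replicate 1, and its log2 fold change of -0.29 ± 0.09 (SE) had an adjusted p of 0.0375 in limma. That call was lost without WT replicate 2, 3 or 4 and without EXT1-/- replicate 1, 3 or 4, and with limma-voom. In the authors' deposited table SUMF1 has an FDR of 0.0819 and is not called.

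Of 15 other sulfatases, 13 were in the table: 5 were lower, 4 were higher and 4 missed the threshold. Of all genes, 16.8% were lower and 15.2% higher. The median log2 fold change of the 13 was -0.14, beside 0.01 for all genes. SULF1 had a more negative value than each of these 13. ARSD averaged 431.8 ± 20.0 normalised counts in WT and fell to 215.8 ± 25.2 in EXT1-/- (SD, n = 4 each; adjusted p = 8.01e-05, limma). ARSE fell by 0.45 on the log2 scale. ARSA, the lysosomal enzyme that breaks down sulfatide, rose from 179.2 ± 19.2 to 359.5 ± 53.3 (0.99 ± 0.12 SE, adjusted p = 0.00036, limma). The family held genes called in both directions, with SULF1 and SULF2 among those lower.

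**Figure D4:**
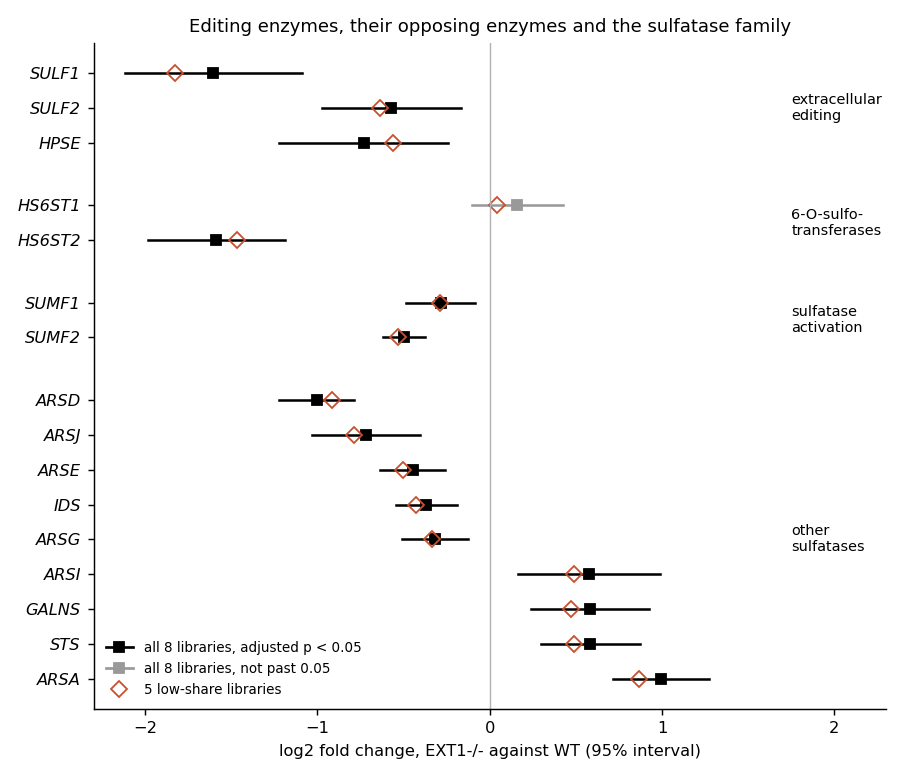
Log2 fold change, EXT1-/- against WT, with its 95% interval (x axis) for the editing enzymes, the 6-O-sulfotransferases, SUMF1 and SUMF2, and the 9 other sulfatases that passed (y axis), black where the limma adjusted p passed 0.05, with diamonds for the low set alone. SULF1 at -1.60 and HS6ST2 at -1.59 lie furthest left, and the 9 other sulfatases lie on both sides of 0.

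Around HPSE, 6 of 7 genes fixed for processing and uptake of heparanase were in the table. None was lower, 1 was higher and 5 missed the threshold (median -0.02), beside 16.8% of all genes lower and 15.2% higher. CTSL, the cathepsin that cuts the heparanase proenzyme, had a log2 fold change of -0.13 ± 0.05 (SE, adjusted p = 0.0686, limma), and it passed with the library set as a term and within the low set. IGF2R, a mannose 6-phosphate receptor, rose by 0.15 on the log2 scale (adjusted p = 0.0393, limma), a call lost without WT replicate 2, 3 or 4 and without EXT1-/- replicate 2, 3 or 4, and in 4 of 11 other alternatives. In the authors' deposited table IGF2R has an FDR of 0.279 and is not called. HPSE2, the inactive paralogue that inhibits heparanase, was not analysed here.

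Of 10 genes reported to regulate transcription of this group, 8 were in the table: 3 were lower, 1 was higher and 4 missed the threshold (median -0.03), beside 16.8% lower and 15.2% higher among all genes. EGR1, an immediate early zinc finger factor, fell from 714 ± 118 to 30.2 ± 9.88 normalised counts, by 4.56 on the log2 scale (SE 0.23, adjusted p = 2.55e-06, limma). Like HPSE, EGR1 entered the table through WT libraries alone, which limited its direction. ETS1 fell by 0.63 (adjusted p = 0.00181, limma). SP1, the factor that binds GC boxes, had 0.04 ± 0.07 (SE, adjusted p = 0.747, limma). GABPA rose by 0.25 (adjusted p = 0.0418, limma), a call lost without WT replicate 1, 2 or 3, without EXT1-/- replicate 1, 2 or 3, and in 3 of 11 other alternatives. In the authors' deposited table GABPA has an FDR of 0.0639 and is not called. Whether these factors bear on the members was not tested.

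The genes that make the substrate moved in both directions. Of 26 genes for heparan sulfate chain synthesis, 23 were in the table, with 3 lower, 7 higher and 13 not passing (median 0.15), beside 16.8% of all genes lower and 15.2% higher. The 3 lower were EXT1, the edited gene, HS3ST5, and NDST3, which entered the table through WT libraries alone. These counts leave out the 6-O-sulfotransferases described above, of which HS6ST2 had a log2 fold change of -1.59. The count of 7 higher became 4 without WT replicate 2 or 4 and without EXT1-/- replicate 1 or 4. Not all of these limma calls are shared by the authors' deposited table. It does not call NDST3 (FDR 0.119), nor EXTL1 (0.146) and EXTL3 (0.0655), which were among the higher. GLCE, the epimerase that makes iduronic acid, rose by 0.58 and XYLT1, which starts the chain, by 0.55 on the log2 scale. Of 15 core proteins, 13 were in the table, with 2 lower, 6 higher and 5 not passing (median 0.14), and the 2 lower became 4 without WT replicate 1. Glypican GPC6 fell by 0.85, while glypican GPC3 rose by 0.72 and syndecan SDC1 by 0.59.

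Of 17 measured genes within 500 kb of the members, 1 was lower and 2 were higher, beside 16.8% and 15.2% of all genes. SULF1 had 4 on chromosome 8, the nearest being SLCO5A1, 6.131 kb away (log2 fold change -0.12), and the pseudogene AF201337.1, 336 kb away on the other side (0.23). NCOA2, further out, rose by 0.25 (adjusted p = 0.00698, limma). None of the 4 was lower beyond the threshold.

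SULF2 had 2 such genes, NCOA3 and ZMYND8. NCOA3 lies on the opposite strand and its annotated end overlaps that of SULF2 by 530 bases. NCOA3 rose from 1703 ± 130 to 2513.8 ± 145 normalised counts (log2 fold change 0.56 ± 0.07 SE, adjusted p = 0.000386, limma), the reverse of SULF2. Whether the counting used strand is not given in the sources used here, so reads from the shared bases may have been assigned to either gene. HPSE had 11, of which FAM175A was lower (-0.52, adjusted p = 0.00136, limma). The nearest, COQ2 at 7.546 kb and HELQ at 72.2 kb, both had -0.09 and did not pass.

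The genes most like each member were ranked by the root mean square difference of centred log2 values over the 8 libraries, among 13870 other genes of at least 1 CPM (13871 for HPSE). SULF1 was most like SFRP2, a secreted Wnt modulator, at 0.0757, followed by FOXA2 at 0.0928 and HLA-DPB1 at 0.113. SULF2 was most like the protocadherin PCDH1 at 0.0691, ADCY9 at 0.0730 and TRIML2 at 0.0816. HPSE was most like the pseudogene ADCY10P1 at 0.0956, MIR210HG at 0.108 and IFIT5 at 0.120. These distances describe the same 8 libraries, including the high values shared by the high set.

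Marker genes of the induced and of other cell types also differed between the groups, and their part in the values of SULF1, SULF2 and HPSE was not tested. Among all 15811 genes, 16.8% were lower and 15.2% higher, the background for each marker list. Of 8 primitive streak markers, 6 were in the table, with 4 lower and none higher (median -0.99). Their summed level was 801 to 909 CPM in WT and 291 to 450 CPM in EXT1-/-. EOMES fell by 1.51, MIXL1 by 1.54 and NODAL by 1.07 on the log2 scale. All 8 pluripotency markers were in the table, with 5 lower and 2 higher (median -0.67). The summed level of the 8 was 4657 to 4921 CPM in WT and 3434 to 3833 CPM in EXT1-/-. TDGF1 fell by 2.09, DPPA4 by 1.24 and POU5F1 by 0.86. The 2 higher were SOX2 and ZFP42, with log2 fold changes of 0.93 and 0.37 in the authors' deposited table.

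Of 8 neuroectoderm markers, the 3 in the table, ZIC1, OTX1 and POU3F2, were all higher, beside 15.2% of all genes. Their summed level was 3.65 to 4.73 CPM in WT and 72.4 to 129 CPM in EXT1-/-. Since 2 of them entered the table through EXT1-/- libraries alone, their direction was limited in the way described for HPSE. PAX6 and SOX1 were not analysed here. Of 8 neural crest markers, 5 were in the table, with 4 higher and 1 lower, beside 15.2% and 16.8% of all genes. Their summed level was 21.1 to 25.1 CPM in WT and 143 to 343 CPM in EXT1-/-. MSX1, also higher, made up much of it, with means of 11.6 CPM in WT and 157 CPM in EXT1-/-. PAX3 rose by 3.37, MSX2 by 2.49 and TFAP2A, which entered through EXT1-/- libraries alone, by 5.52 on the log2 scale, and SOX9 was the lower one, a call lost when any 1 of the WT libraries, or EXT1-/- replicate 1 or 2, was left out. In the authors' deposited table SOX9 has an FDR of 0.0679 and is not called. FOXD3, SNAI2 and SOX10 were not analysed here.

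Of 8 definitive endoderm markers, 5 were in the table, with CXCR4 and GATA4 higher and FOXA2 and HHEX lower. Among all genes 16.8% were lower and 15.2% higher, the background for each list here. The summed endoderm level was 13.8 to 15.1 CPM in WT and 33.2 to 48.9 CPM in EXT1-/-. CXCR4 and GATA4 made up most of it in EXT1-/-. CXCR4 had means of 1.86 CPM in WT and 13.3 CPM in EXT1-/-, and GATA4 5.98 and 22.0 CPM. FOXA2 and HHEX both entered the table through WT libraries alone. Of 8 fibroblast markers, 4 were in the table, and COL1A2, THY1 and COL1A1 were lower. The summed level of the 4 was 208 to 229 CPM in WT and 125 to 141 CPM in EXT1-/-. Fibroblast markers COL3A1, DCN, LUM and POSTN were not analysed here. Of 8 amnion and trophectoderm markers, 5 were in the table, with TFAP2A and HAND1 higher and GABRP lower. TFAP2A and HAND1 entered the table through EXT1-/- libraries alone and GABRP through WT libraries alone. The summed level of the 5 was 85.5 to 93.9 CPM in WT and 93.1 to 162 CPM in EXT1-/-, and CDX2, which did not pass (adjusted p = 0.234, limma), made up most of the means, at 85.8 and 106 CPM. HAND1 counts were 0, 0, 1 and 1 in the WT libraries.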

How the data were processed

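RNA-seq of 4 WT and 4 EXT1-/- libraries was analysed. Per the submitters' processing notes, STAR, RSEM, edgeR and GRCh38.p10 were named, with no versions. The authors deposited whole-number normalised values per gene, treated as signal and called normalised counts here: 38.9 equal 1 CPM, effective library sizes were nearly equal, and depth in raw reads is unknown, so no count model was run. For each gene the authors also deposited values on a log2 scale (fold change and CPM), the score of a likelihood ratio test, its p-value and an FDR. Columns of other samples numbered 0.

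Here log2(value + 1) was fitted with limma 3.58.1 in R 4.3.3, with an intensity trend, over all 15811 genes, with Benjamini-Hochberg adjustment and a threshold of 0.05. Fold changes on this scale understate those of low genes. The script was tested on simulated data. Per-kb levels used merged GENCODE 29 exons, matched for 15777 genes.

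Members and lists were chosen with earlier results of these data known. Named genes are the members, EXT1, the opposing and activating enzymes, up to 3 called genes per list by smallest adjusted p, the nearest neighbours and the 3 genes most like each member. SP1, SOX2, SOX9, ZFP42, MSX1, HS3ST5, NDST3, EXTL1, EXTL3, CDX2, NCOA2 and FAM175A were named after their values were seen. Alternatives were another pseudocount (0.5 or 10), filter, scaling, limma-voom, no trend, a replicate block, library sets and leaving out each library. Because the values are not counts, DESeq2 and edgeR tests were not run. Not every gene counted in a list is reported here by name.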

Additional observations from a re-analysis of the deposited data

Results flagged for a closer look

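In groups of 4 libraries, 15 of 128 group values had 1 library whose gap to the nearest other library exceeded Dixon's critical share of the group's range, which chance alone gives in about 1 in 20 groups. HPSE was among them: EXT1-/- replicate 4 had 19 normalised counts, and the other EXT1-/- libraries 32 to 33. No SULF1 or SULF2 group was among them. The mitochondrial share of WT replicate 1 was 10.67%, against 5.30% to 5.43% in the other WT libraries.

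In EXT1-/- replicate 4, ARSE stood at 609 (others 510 to 524), FOXA2 at 53 (27 to 31), GATA4 at 1203 (693 to 764) and MSX2 at 916 (531 to 577). In the same library, POU3F2 stood at 110 (85 to 89), SDC1 at 2505 (2115 to 2167) and ZIC1 at 4431 (2501 to 2733). In EXT1-/- replicate 3, CTSL stood at 1650 (1738 to 1755). In WT replicate 1, EXT1 stood at 1776 (1464 to 1508) and THY1 at 2337 (1793 to 1857). The same library was low for COL1A2 at 4106 (5415 to 5547), GPC3 at 2352 (2794 to 2831) and HS6ST2 at 490 (675 to 708).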

How the results depend on the processing

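SULF1, SULF2 and HPSE were lower in EXT1-/- under every alternative that gave a value. A filter of 5 CPM in 4 libraries gave none for SULF1 and HPSE. SULF1 passed each time, from -1.79 to -1.47 with 1 library left out and from -1.83 to -1.43 otherwise. SULF2 ran from -0.66 to -0.42 with 1 library left out, and limma without a trend gave -0.57 (adjusted p = 0.0516). HPSE ran from -0.80 to -0.54 with 1 library left out and passed in the other 10. The 5063 genes called became 8195 with the library set as a term, and 3721 to 6041 with 1 library left out; the cause was not tested.

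With the replicate number as a block, 4934 genes were called, and SULF1 had -1.60 (adjusted p = 0.00352), SULF2 -0.57 (0.0282) and HPSE -0.73 (0.0433) in limma. The labels do not say that the numbers mark shared cultures, so they were not taken to pair the libraries. Same-numbered libraries' deviations correlated at 0.67, 0.16, 0.24 and -0.52, and not every library correlated best with its own number. These correlations also vary with the library sets, so they cannot show whether the numbers mark shared cultures.

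Of 956 values of 51 other named genes under the alternatives, 29 lost a call, 5 gained one and 0 changed sign.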
